A study of Mus musculus with 9 samples.

Results

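The peaks described here are the RING1B binding regions in mouse embryonic stem cells (mESCs) whose nearest gene carried a Gene Ontology process term with the words cell cycle. Genes named Cdkn, the cyclin-dependent kinase inhibitors, were left out. The choice rested on the annotation of the nearest gene and on no measured value. It took 43 of 2347 peaks in Eed+/+ mESCs, at 39 genes, and 35 of 1810 peaks in Eed-/- mESCs, at 34 genes. The 2 sets together named 52 genes, of which 21 were in both, 18 in Eed+/+ only and 13 in Eed-/- only. The left-out Cdkn peaks numbered 8 in Eed+/+ and 4 in Eed-/-, and 444 and 403 peaks had no process term at all. The remaining 1852 Eed+/+ and 1368 Eed-/- peaks, annotated with other processes, are the peaks of comparison.

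Both groups were C57BL/6 mESCs by their labels, either wild type (Eed+/+) or homozygous for loss of Eed (Eed-/-). RING1B was mapped by chromatin immunoprecipitation and sequencing (ChIP-seq), to ask which of its sites remain without the histone mark that EED is needed for. The files give 1 peak list a genotype: the Eed+/+ list rested on 16814546 mapped tags and the Eed-/- list on 70343706, from 1 and 3 sequencing runs, so the Eed-/- list was 4.18 times deeper. The labels call the 3 Eed-/- runs replicates, but they were pooled before peaks were called, so no value below has an error between cultures, the wild type was sequenced in 1 run, and nothing shows how far a second clone or culture would differ. The loss of Eed itself cannot be checked in a list of RING1B peaks, and neither can the cell type.

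RING1B is the catalytic subunit of Polycomb repressive complex 1 (PRC1), which ubiquitylates histone H2A at silenced genes. EED is a core subunit of PRC2, the complex that methylates histone H3 on lysine 27, a mark that CBX subunits of PRC1 can bind. The cell cycle is driven by cyclins, which activate cyclin-dependent kinases (CDKs), and is held back by CDK inhibitors, by retinoblastoma and E2F proteins and by checkpoint genes. The CDK inhibitors are the best known Polycomb targets among them.

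RING1B peaks were assigned to a minority of cell cycle genes in either genotype, as they were over all protein-coding genes. Of 251 genes in 8 lists of cell cycle genes, 24 were the nearest gene of an Eed+/+ peak (9.56%) and 26 of an Eed-/- peak (10.4%), 14 were in both, and 215 were in neither. Over all 22238 protein-coding gene names the shares were 8.09% and 6.75%. These were counted by exact name, whereas genes of the lists were also matched through older names, so the shares over all genes may be too low. None of 21 genes of replication licensing and none of 25 cell cycle ubiquitin ligase genes was the nearest gene of a peak in either genotype. At the shares over all genes, lists of this size would hold few such genes, so these counts are not read as a lack. Among 21 genes of the E2F and pocket protein family and their partners, Myb was in the Eed+/+ list alone and E2f6 in the Eed-/- list alone. In the list of cyclins and CDKs, 8 of 40 genes had a peak in Eed+/+ and 6 in Eed-/-, with Ccnd2, Ccno, Cdk1 and Cdk5r2 in both, Cables1, Cdk14, Cdk3 and Cdk6 in Eed+/+ only, and Ccnd1 and Ccnjl in Eed-/- only. In the growth arrest list, 9 of 29 genes had a peak in Eed+/+ and 7 in Eed-/-, and Gas1, Lats2, Pmp22, Tgfb1, Tfap2a and Dab2ip were in both. Rassf1, Rassf2 and Tgfb2 were in Eed+/+ only and Gas7 in Eed-/- only. These splits go by gene name: the Rassf1 peak was overlapped by an Eed-/- peak assigned to another gene. In the checkpoint list, Gadd45g and Trp73 were in both genotypes and Rprm in Eed-/- only, out of 32 genes. In the list of mitosis and chromosome segregation, Smc3 was in both, Bub3 and Plk5 in Eed+/+ only and the septins Sept3, Sept5 and Sept11 in Eed-/- only, out of 57. In the meiosis list, 1 of 26 genes had a peak in Eed+/+ and 5 in Eed-/-: Mael was in both, and Smc1b, Sycp1, Sycp2 and Tdrd1 in Eed-/- only. Mael was in the Eed+/+ list only through peaks over the starts of Ildr2 and 5330438I03Rik. The peak over the start of Mael itself (level 1.79, fold enrichment 9.67) was in Eed-/- and was not overlapped. Ccno, Cdk5r2, Cdk14, Ccnjl, Bub3, Mael, Tdrd1, Tgfb1, Tfap2a, Dab2ip, Rassf1 and Gas7 belong to these lists but carry no cell cycle term in the files. They are therefore not among the 52 genes.

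**Figure D1:**
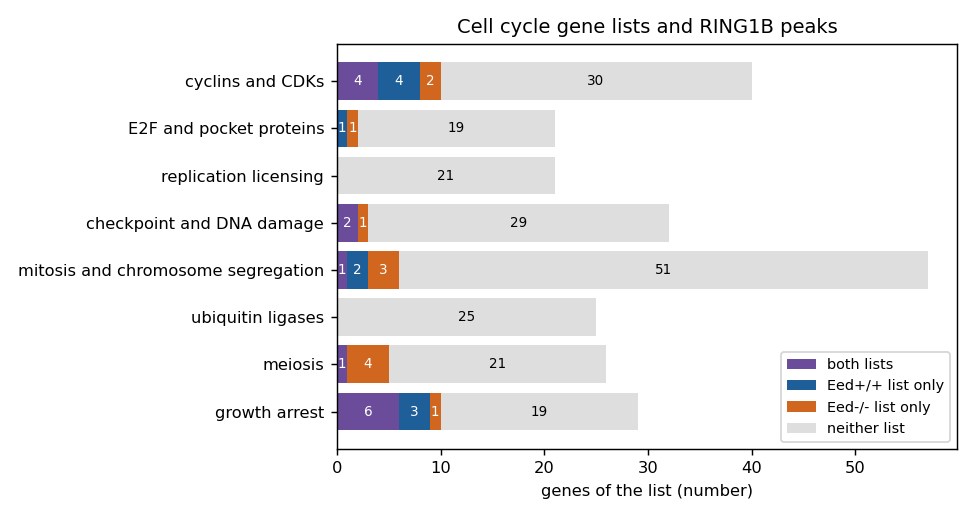
Number of genes (x axis) in each of 8 lists of cell cycle genes (y axis), split by whether the gene was the nearest gene of a RING1B peak in both genotypes, in Eed+/+ only, in Eed-/- only or in neither. The lists of replication licensing (21 genes) and ubiquitin ligases (25 genes) have no peak, and the meiosis list has 4 of its 5 genes with a peak in the Eed-/- list only.

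Sequence from the 100 bases before the start site is shown for both kinds of promoter that the results turn on, those with a peak in Eed-/- only and those with one in both genotypes. Each is written 5′ to 3′ on the strand of its gene, read from the mm9 (NCBIM37) genome. Capitals mark an E-box (CACGTG), the core of an E2F site (TTCCCGC, or GCGGGAA on the other strand) or a CCAAT box (ATTGG on the other strand). The first 6 belong to genes with a peak in Eed-/- only. They are Sycp2, at chr2:178142128-178142227 on the minus strand, and Sycp1, at chr3:102740024-102740123 on the minus strand, which encode proteins of the synaptonemal complex. They also include Smc1b, the meiotic cohesin subunit, at chr15:84962388-84962487 on the minus strand, and Mov10l1, a germ cell RNA helicase, at chr15:88813239-88813338 on the plus strand. The others are Sept3, at chr15:82105577-82105676 on the plus strand, and E2f6, a repressor of the E2F family that is also found in a complex with RING1B, at chr12:16817671-16817770 on the plus strand. The last 4 belong to genes with an overlapping peak in both genotypes: the Hippo pathway kinase Lats2, at chr14:58364961-58365060 on the minus strand, Gadd45g, at chr13:51941947-51942046 on the plus strand, the p53 relative Trp73, at chr4:153514318-153514417 on the minus strand, and Ccnd2, cyclin D2, at chr6:127101067-127101166 on the minus strand.
Sycp2: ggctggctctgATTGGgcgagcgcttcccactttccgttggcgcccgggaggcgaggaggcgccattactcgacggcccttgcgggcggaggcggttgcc
Sycp1: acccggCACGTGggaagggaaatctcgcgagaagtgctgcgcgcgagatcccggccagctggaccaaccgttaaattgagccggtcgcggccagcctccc
Smc1b: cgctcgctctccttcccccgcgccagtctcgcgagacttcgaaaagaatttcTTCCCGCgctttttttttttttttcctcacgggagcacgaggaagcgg
Mov10l1: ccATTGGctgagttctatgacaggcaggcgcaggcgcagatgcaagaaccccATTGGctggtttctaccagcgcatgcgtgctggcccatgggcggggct
Sept3: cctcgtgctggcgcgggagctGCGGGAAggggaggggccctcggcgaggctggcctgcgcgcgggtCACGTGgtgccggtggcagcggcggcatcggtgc
E2f6: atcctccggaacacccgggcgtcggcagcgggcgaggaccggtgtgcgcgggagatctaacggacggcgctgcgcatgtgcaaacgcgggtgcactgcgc
Lats2: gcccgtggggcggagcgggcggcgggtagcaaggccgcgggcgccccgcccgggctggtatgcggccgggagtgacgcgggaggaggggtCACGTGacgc
Gadd45g: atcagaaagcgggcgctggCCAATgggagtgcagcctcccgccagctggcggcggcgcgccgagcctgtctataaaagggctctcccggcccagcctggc
Trp73: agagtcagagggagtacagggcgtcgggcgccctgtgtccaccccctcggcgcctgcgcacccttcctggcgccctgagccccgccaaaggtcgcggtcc
Ccnd2: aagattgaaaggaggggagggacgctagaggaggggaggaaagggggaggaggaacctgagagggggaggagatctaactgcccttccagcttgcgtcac

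An E-box stood in the 100 bases before the start of Sycp1, Sept3 and Lats2, an E2F core before Smc1b and Sept3, and a CCAAT box before Sycp2, Mov10l1 and Gadd45g. Over the 30 member genes whose stretch was read and free of exons, 4 held an E-box (these and Tgfb2), 2 an E2F core (both shown) and 6 a CCAAT box. Member genes on chromosome 18 were not read, and each member stretch was that of a start close to the peak middle. Among 22219 genes, the 100 bases before the outermost start held them in 3.48%, 2.19% and 20.1%. There no stretch was left out for exons, so the shares over members and over all genes are not of like sets. The shown promoters were picked, so their own counts are not to be read against these shares. The promoters of E2f6, Trp73 and Ccnd2 held none of the motifs searched. The Ccnd2 stretch had 2 CG dinucleotides and the E2f6 stretch 16, although both genes lay under RING1B peaks.

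The cell cycle peaks overlapped between the genotypes at shares a little below those of all peaks, within wide intervals. Of the 43 Eed+/+ peaks, 21 shared at least 1 bp with an Eed-/- peak, which is 48.8% (exact 95% confidence interval 33.3 to 64.5%), beside 53.1% of all Eed+/+ peaks and 52.5% of those annotated with other processes. Of the 35 Eed-/- peaks, 23 shared bases with an Eed+/+ peak, which is 65.7% (47.8 to 80.9%), beside 73.1% of all Eed-/- peaks and 76.2% of those with other annotation. Both cell cycle intervals held the share of the other annotated peaks. These intervals cover counting error only. The Eed+/+ share depended on the thresholds of the Eed-/- call: with peaks of a false discovery rate of 1% or less it was 16.3% (16.2% with other annotation), and with only those Eed-/- peaks that pass 100 tags at the Eed+/+ depth it was 0% (4.48%). Among the Eed-/- peaks at their own gene's start site, 13 of 23 were overlapped (56.5%, 34.5 to 76.8%), against 744 of 950 with other annotation (78.3%, 75.6 to 80.9%). At the start of another gene 5 of 5 were overlapped (67.7% with other annotation), and at no start 5 of 7 (71.4%, against 72.2%). Without the members of the meiosis list and Mov10l1, left out after their values were seen, 23 of 31 Eed-/- cell cycle peaks were overlapped (74.2%). The peaks left out, at Smc1b, Sycp1, Sycp2 and Mov10l1, were all in Eed-/- only. The share therefore had to rise, and nothing is concluded from it. By gene name, 53.8% of the Eed+/+ genes were in the Eed-/- list and 61.8% of the Eed-/- genes in the Eed+/+ list, against 61.6% and 77.5% of the genes with other annotation.

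**Figure D2:**
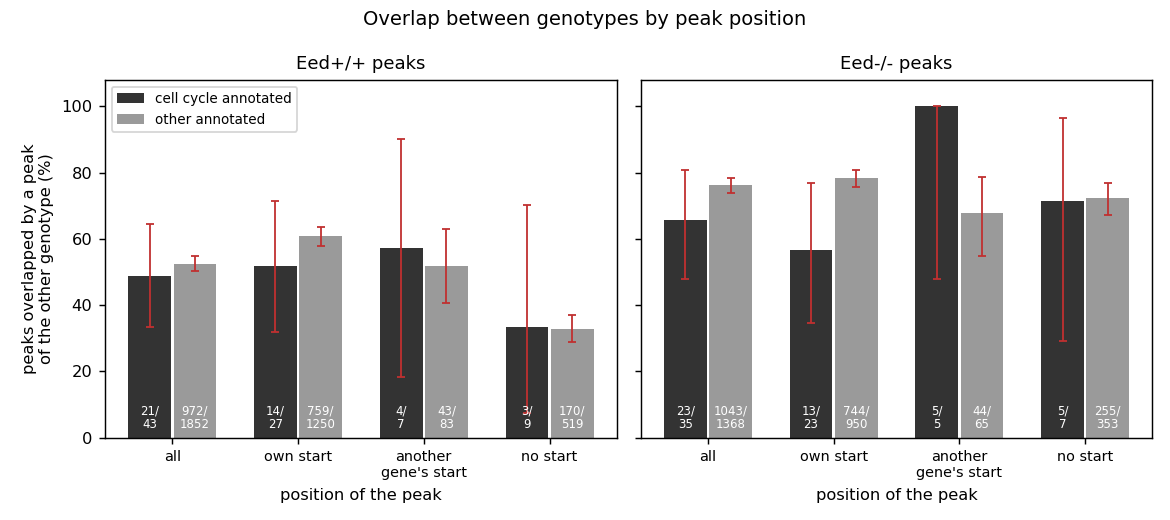
Percent of peaks overlapped by a peak of the other genotype (y axis), for cell cycle annotated (dark) and other annotated peaks (light), over all of them and by peak position (x axis), in Eed+/+ (left) and Eed-/- (right). Red bars are exact 95% binomial intervals and the numbers in the bars give overlapped and total peaks; at own start sites in Eed-/- the dark bar stands at 13 of 23 and the light bar at 744 of 950.

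The genes with a peak in both genotypes included Avpi1, Bcr, Camk2b, Ccnd2, Cdc2a (now Cdk1), Dhh, Gadd45g, Gas1, Hmga2, Lats2, Nfatc1, Pmp22, Prox1, Rb1cc1, Runx3, Smc3, Tlk2, Trp73, Vash1 and Zwint. At each of the 21 genes the overlapping pair was assigned to the same gene in both lists. The level of a peak, given here as tags per kb of peak per 1000000 mapped tags, was lower in Eed-/- in 21 of 21 pairs, as it was in 972 of 972 pairs with other annotation. Eed-/- peaks held 0.214 times the Eed+/+ level at the median (quartiles 0.158 and 0.364), and the pairs with other annotation 0.220 times. A pair with the same number of tags per kb in both libraries, before scaling by depth, would stand at 0.239. In Eed+/+ the levels of the 21 pairs ran from 2.82 to 12.7, and in Eed-/- from 0.985 to 2.11, so that the highest Eed-/- level was below the lowest Eed+/+ level. At a given width, the threshold of 100 tags stands for a level 4.18 times higher in Eed+/+ than in Eed-/-. The lower edge of the Eed+/+ range, and so the gap, thus rests in part on threshold and depth. Across the 21 pairs the order of genes was only weakly shared between genotypes (Spearman's rho 0.262 and Pearson's r 0.181 for the level, against 0.414 and 0.442 over the 972 other pairs). These are correlations across peaks of the same 2 libraries, not across replicates.

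Trp73, which encodes a p53 relative able to induce cell cycle arrest, had the highest level of the 43 Eed+/+ peaks, 12.7, and 1.41 in Eed-/-. Its ratio of 0.111 was the lowest of the 21 pairs. The Trp73 peak in Eed+/+ lay at chr4:153513095-153516394 with 704 tags and a fold enrichment over background of 32.49, and in Eed-/- it had 273 tags and a fold enrichment of 4.5. Tlk2, a kinase that acts on histone chaperones during replication, had the highest ratio, 0.456, with levels of 3.77 in Eed+/+ and 1.72 in Eed-/-. The Tlk2 peak was not at the gene but 12241 bp from its nearest start. In Eed+/+ Trp73 was thus far above Tlk2, and in Eed-/- a little below it.

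Ccnd2 had the widest cell cycle peak of either list. In Eed+/+ it spanned 7996 bp (chr6:127098304-127106299, 953 tags, level 7.09, fold enrichment 34.81), over the start site and the region upstream. In Eed-/- that region held 2 peaks that nearly touched, the first ending at chr6:127101424 and the second beginning at chr6:127101433. The first, of 2039 bp and 185 tags, covered the start site at a level of 1.29, and the second, of 3323 bp and 267 tags, lay upstream of it at 1.14. This upstream peak was the 1 cell cycle peak of the Eed-/- list that touched no CpG island. The adjoining first peak did touch an island, so this exception depends on the region being listed as 2 peaks. Cdc2a, which encodes the mitotic kinase CDK1, had a peak 45268 bp from its start in Eed+/+ (chr10:68860954-68863467, level 3.19, fold enrichment 9.14) and one at the same place in Eed-/- (1.10, fold enrichment 5.14), so the kinase's own promoter was not the bound region in either list.

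Among the 6 paired Eed+/+ peaks of highest fold enrichment were those at Zwint, Lats2, Nfatc1, Dhh and Hmga2. The Zwint peak (chr10:72561375-72563394) had the highest fold enrichment, 53.13, with a level of 9.04 in Eed+/+ and 1.20 in Eed-/-. ZWINT is a kinetochore protein, but this peak covered the start of Pcdh15, a protocadherin gene of the inner ear, and lay 442036 bp from the nearest start of Zwint. The Lats2 promoter peak (chr14:58363592-58365809) stood at 47.53-fold and a level of 7.11 in Eed+/+, and at 5.21-fold and 1.26 in Eed-/-. The Nfatc1 peak (chr18:80907796-80913234), at the gene of a calcium-regulated transcription factor, stood at 46.03-fold and 7.40, then at 7.05-fold and 1.17. Both genes also had an Eed+/+ peak with no counterpart: Lats2 had a second Eed+/+ peak over an internal start (level 5.74) and Nfatc1 a neighbouring one (level 4.62), and neither was overlapped in Eed-/-. The Dhh peak (chr15:98724087-98729366), at the gene of a Hedgehog ligand, had the most tags of all Eed+/+ cell cycle peaks, 994, with levels of 11.2 and 1.57. In Eed-/- the Dhh peak no longer reached the start site, which lay 1847 bp beyond its edge. Hmga2, which encodes a chromatin protein of growing embryonic cells, had levels of 9.08 and 1.48 and fold enrichments of 36.27 and 6.68.

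Genes of cell cycle arrest were in both lists. Peaks at 4 genes with the term cell cycle arrest, Gas1, Pmp22, Trp73 and Vash1, were in the Eed+/+ list, and 4 of 4 were overlapped in Eed-/-. The Eed-/- list held these and 1 more arrest gene, Rprm, which was in Eed-/- only. Gas1, first known as a growth arrest gene and also a Hedgehog co-receptor, had the highest Eed-/- level of any cell cycle peak, 2.11 (chr13:60276782-60278939, 320 tags), and 7.63 in Eed+/+. Pmp22, a myelin protein also known as Gas3, had the lowest levels of the pairs in both genotypes, 2.82 and 0.985. Vash1, an inhibitor of vessel growth, stood at 3.23 and 1.41. Of 10 Eed+/+ peaks with the term for the G1/S transition, at Cables1, Camk2b, Camk2d, Gpr132, Id4, Lats2, Myb and Nfatc1, 3 were overlapped, and of 25 with the term cell cycle itself 13, where 53.1% of all Eed+/+ peaks were. With 4 and 10 peaks, a difference between these terms was not tested, and the 2 terms were singled out after their values were seen. Gadd45g, a gene induced by stress and DNA damage, had levels of 4.27 and 1.56. Runx3, a transcription factor of T cells and neurons, had 6.14 and 1.29, and Prox1, a factor of lymphatic and liver cells, 9.61 and 1.14. Smc3, a cohesin subunit, had levels of 5.06 and 1.14 at a peak that covered the start of Rbm20. Of the other pairs, Rb1cc1, Avpi1, Camk2b and Bcr had Eed+/+ levels of 7.22, 3.29, 3.80 and 2.93 and ratios of 0.214, 0.401, 0.452 and 0.419.

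**Figure D3:**
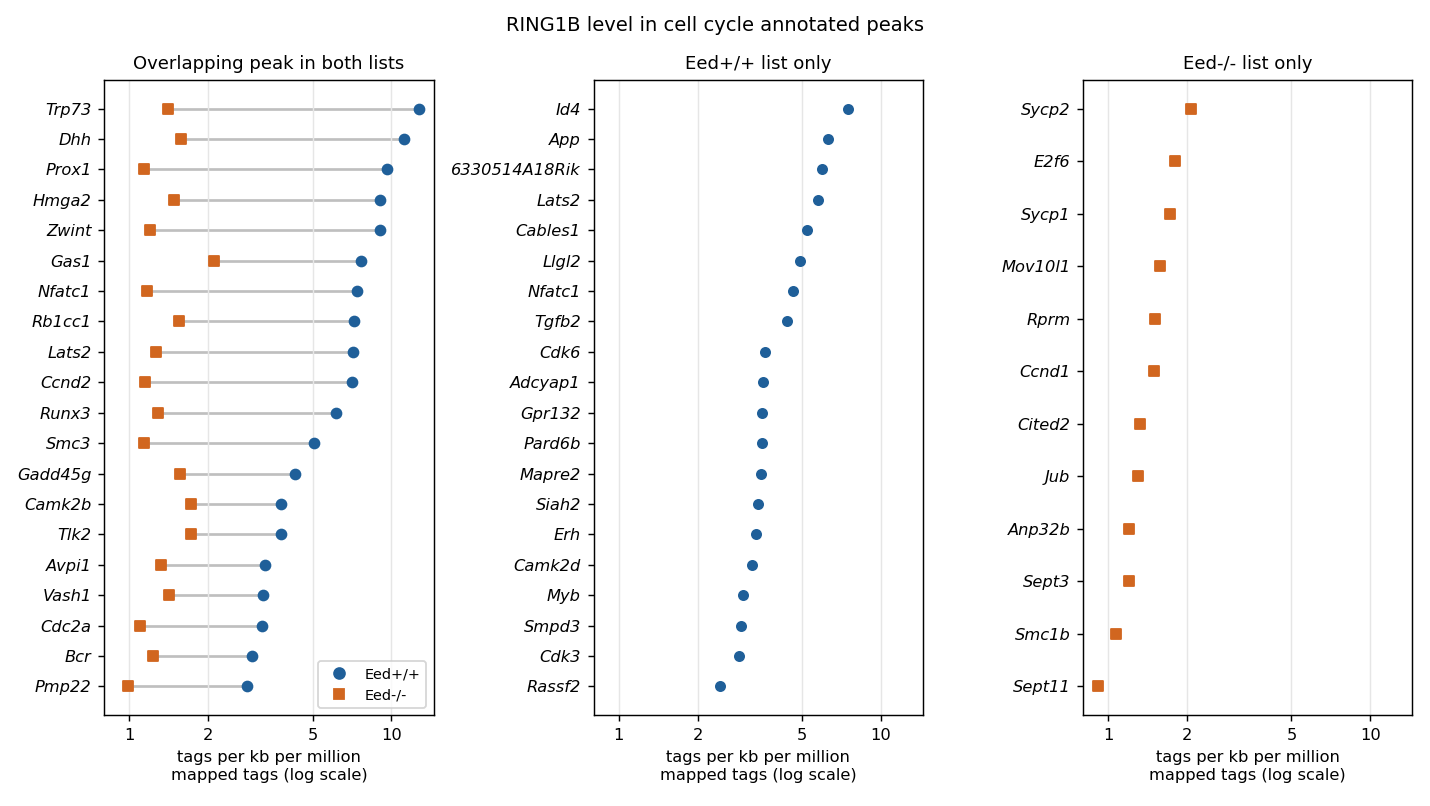
Level of RING1B in cell cycle peaks (x axis, tags per kb per 1000000 mapped tags, log scale) by nearest gene (y axis), in Eed+/+ (circles) and Eed-/- (squares), for 20 of the 21 overlapping pairs (left, joined by lines), 20 of the 22 peaks in Eed+/+ only and the 12 in Eed-/- only. The Eed+/+ levels of these pairs range from 2.82 to 12.7 and the Eed-/- levels from 0.985 to 2.11, without overlap. The lower edge of the Eed+/+ levels rests in part on the threshold of 100 tags at the lower depth.

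The 22 peaks in Eed+/+ only had lower values than the 21 that were overlapped. Their median level was 3.55 (range 2.44 to 7.46) against 7.09 (2.82 to 12.7), a ratio of the medians, overlapped to not overlapped, of 2.00, where the peaks with other annotation gave 1.46 (5.93 against 4.06). Fold enrichment at the median was 11.53 against 20.79 (13.54 and 20.92 with other annotation), and width 2384 against 2658 bp. The groups overlapped widely. In the Eed-/- library the 101 tags of the smallest listed peak stand for 7.16 to 23.9% of the Eed+/+ levels of these 22 peaks, so a remaining level below that share would not have been listed whatever its enrichment. For the 21 overlapped peaks that share was 2.43 to 21.2%.

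The 18 genes in Eed+/+ only were 6330514A18Rik, Adcyap1, App, Cables1, Camk2d, Cdk3, Cdk6, Erh, Gpr132, Id4, Llgl2, Mapre2, Myb, Pard6b, Rassf2, Siah2, Smpd3 and Tgfb2. Among the highest in fold enrichment of the 22 peaks were the second Nfatc1 peak (22.11), Pard6b (21.66), Cables1 (17.02), Gpr132 (14.14) and 6330514A18Rik, now Plk5 (13.86). Pard6b encodes a polarity protein, and its peak (121 tags, level 3.50) lay 30075 bp from its start. Cables1, which encodes a protein that binds CDKs, had a peak over its start at a level of 5.24 with 222 tags. The peak at Gpr132, a receptor of blood cells, had 230 tags at a level of 3.53 and lay 14214 bp from the gene. Plk5, a polo-like kinase gene, had 337 tags, the most of the peaks in Eed+/+ only, at a level of 5.93. The highest level among them was at Id4, an inhibitor of basic helix-loop-helix factors, with 7.46 over the start site. Cdk6, the partner kinase of D-type cyclins, had 222 tags at a level of 3.60 over its start (chr5:3340996-3344659), and Cdk3 had 190 tags at 2.87. Myb, a transcription factor of blood progenitors, stood at 2.98. Tgfb2, a growth factor that arrests many epithelial cells, stood at 4.38, and Rassf2, a RAS effector and tumour suppressor, had the lowest level of the 43, 2.44, with 104 tags. The other genes, App, Adcyap1, Camk2d, Erh, Llgl2, Mapre2, Siah2 and Smpd3, had fold enrichments from 4.79 at Smpd3 to 13.84 at Adcyap1.

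**Figure D4:**
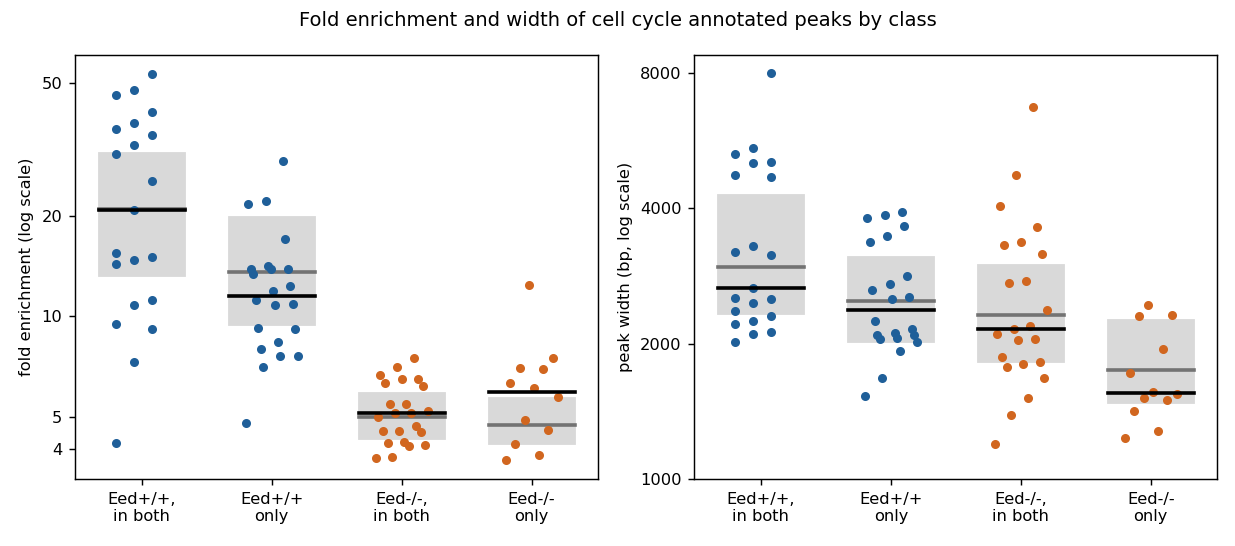
Fold enrichment (left) and width (right) of each cell cycle peak (points, log scales) by genotype and by whether it was overlapped in the other genotype (x axis). Black lines are the medians of the points, and grey boxes and lines the quartiles and medians of the other annotated peaks of the same class; the median fold enrichment was 20.79 for overlapped Eed+/+ peaks, 11.53 for those in Eed+/+ only, and 5.93 for those in Eed-/- only.

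The peaks in Eed-/- only were at meiotic genes, septins and a few regulators of division: Sycp2, Sycp1, Smc1b, Mov10l1, Rprm, E2f6, Anp32b, Cited2, Sept11, Sept3, Jub (now Ajuba) and Ccnd1. They were narrow, with a median of 1558.5 bp against 2158 bp for the 23 overlapped Eed-/- peaks (1753 and 2316 bp with other annotation). Their median level was 1.41 against 1.29 and the median fold enrichment 5.93 against 5.12, whereas among peaks with other annotation those in Eed-/- only stood lower than the overlapped ones (1.28 against 1.33, and 4.74 against 4.98). Of the 12 peaks, 10 covered their own gene's start, against 13 of the 23 overlapped ones. Among peaks with other annotation 63.4% of those in Eed-/- only and 71.3% of the overlapped ones did so. Scaled to the Eed+/+ depth, these 12 peaks would hold 28.2 to 52.1 tags, under the 101 tags of the smallest Eed+/+ peak, so the same level over the same width in Eed+/+ cells would not have been listed. Whether RING1B was higher at them in Eed-/- than in Eed+/+ cells was therefore not tested. Of the 23 overlapped peaks, only that at Sept5 would pass 100 tags at that depth (142).

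Sycp2 had the highest fold enrichment of the 35 Eed-/- peaks, 12.38, and ranked 22 in the whole Eed-/- list (chr2:178141299-178142799, 218 tags, level 2.06). Sycp1, its partner in the synaptonemal complex, stood at 7.02-fold with 184 tags and a level of 1.73 (chr3:102739030-102740545). Mov10l1, a helicase needed for piRNAs in the male germ line, stood at 6.97-fold and 1.57. Smc1b, the meiotic cohesin subunit, had 5.75-fold and 1.07, and its peak also covered the start of Ribc2, so the 2 genes cannot be told apart here. The term meiosis was attached to 4 of the 35 Eed-/- cell cycle peaks (11.4%), those at Smc1b, Smc3, Sycp1 and Sycp2, and to 0.365% of peaks with other annotation. Meiotic genes often carry a cell cycle term too, so this difference follows in part from the choice of peaks and is given as a description. Rprm, a p53 target that arrests cells before mitosis, had the next highest fold enrichment after Sycp2, 7.52, at a level of 1.51. E2f6 stood at 6.33-fold and 1.79 (chr12:16817258-16818496), with its peak middle 106 bp from a start. Anp32b, a histone chaperone gene, stood at 6.11-fold and 1.20.

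Ccnd1, which encodes cyclin D1, had the lowest fold enrichment of the Eed-/- cell cycle peaks, 3.71, with 206 tags at a level of 1.50, and its peak (chr7:152127835-152129787) ended 2061 bp from the start. Cited2, a transcriptional co-regulator, stood at a level of 1.32 and Jub, a LIM protein of cell junctions and centrosomes, at 1.30. Sept3 and Sept11, which encode filament proteins of cytokinesis and of neurons, stood at 1.20 and 0.914. The third septin, Sept5, was in the Eed-/- list only by name. Its peak was the widest of the Eed-/- cell cycle peaks, 6710 bp with 596 tags (chr16:18624290-18630999), and overlapped an Eed+/+ peak that the files assign to the neighbouring gene Gp1bb, at 0.205 times its level.

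Most cell cycle peaks covered a start site, but not always that of the gene they were assigned to. In Eed+/+ 27 of 43 peaks covered a start of their own gene (62.8%, against 67.5% of other annotated peaks), 7 covered the start of another gene only (16.3%, 6.81 to 30.7%, against 4.48%) and 9 covered no start (20.9%, against 28.0%). In Eed-/- the numbers were 23 (65.7%, against 69.4%), 5 (14.3%, 4.81 to 30.3%, against 4.75%) and 7 (20.0%, against 25.8%). For peaks over another gene's start, the interval lay above the other annotated share in Eed+/+, and by a small margin in Eed-/-. The Eed+/+ cases included Zwint over Pcdh15, Rb1cc1 over Npbwr1, Erh over 3830431G21Rik, Smc3 over Rbm20 and Avpi1 over Marveld1. The peak assigned to Rb1cc1, an autophagy gene, was 288336 bp from that gene, and the one assigned to Erh 47252 bp. The middle of 14 of the 43 Eed+/+ peaks lay over 10 kb from the start the files give (32.6%, against 19.3%), and of 7 of the 35 Eed-/- peaks (20.0%, against 18.1%). Of those 14 peaks, 6 covered the start of another gene only, 5 covered no start and 3, at Lats2, Mapre2 and Runx3, covered another start of their own gene. The assignment of Smpd3 and Cdk3 depended on the annotation. The middle of the Smpd3 peak was 1062 bp from the start in the files, whereas its edge was 69977 bp from the nearest GENCODE start of Smpd3. For Cdk3 no start was found among those of GENCODE protein-coding genes, the only kind used.

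**Figure D5:**
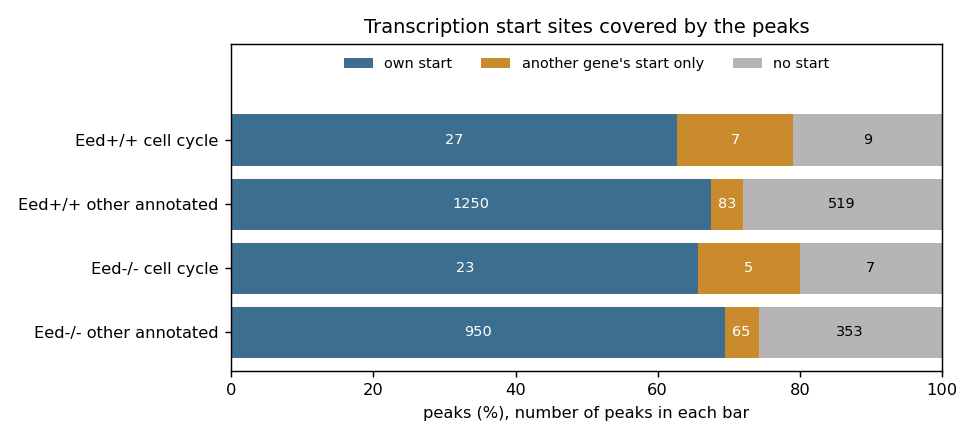
Percent of peaks (x axis) that covered a start site of their own gene, the start of another gene only, or no start, for cell cycle annotated and other annotated peaks in each genotype (y axis); numbers of peaks are in the bars. Another gene's start was covered by 7 of 43 and 5 of 35 cell cycle peaks and by 83 of 1852 and 65 of 1368 others.

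The cell cycle peaks lay on CpG islands like other RING1B peaks. All 43 Eed+/+ peaks touched an island (against 94.7% with other annotation), and 34 of 35 in Eed-/- (97.1%, against 95.8%), the exception being the upstream Ccnd2 peak. The median GC content was 58.6% in Eed+/+ and 60.1% in Eed-/-, against 57.9% and 60.7%. The Eed+/+ peaks were 2533 bp wide at the median and the Eed-/- peaks 2039 bp, against 2703.5 and 2177.5 bp. Their median levels were 4.27 and 1.32, against 4.87 and 1.32. In Eed+/+ the cell cycle peaks stood low in the list by fold enrichment: 15 of 43 were above the median of the whole list (34.9%, 21.0 to 50.9%), against 52.0% of other annotated peaks, with a median of 13.84 against 17.02. In Eed-/- 20 of 35 were above that list's median (57.1%, 39.4 to 73.7%), against 50.4%, with a median of 5.14 against 4.92.

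Beside the cell cycle terms, the assigned genes shared terms of kinases. The term protein amino acid phosphorylation was attached to 11 of 43 Eed+/+ peaks (25.6%), at App, Bcr, Camk2b, Camk2d, Cdc2a, Cdk3, Cdk6, Lats2, Plk5 and Tlk2, and to 3.62% of peaks with other annotation. In Eed-/- it was attached to 6 of 35 (17.1%, against 3.87%). Regulation of transcription was attached to 27.9% of Eed+/+ and 25.7% of Eed-/- cell cycle peaks, against 37.0% and 33.6%. The choice by a cell cycle term selects kinases by itself, so these shares are given as a description.

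Motifs of cell cycle promoters were searched in the 300 bases around the middle of each peak, and the shares of most depended on where the window was placed. The E2F sites TTTCCCGC and TTTGGCGC were in 0 and 0 of the 43 Eed+/+ windows and in 1 (at Prox1) and 0 of the 35 Eed-/- windows, where all peaks held them in 1.36 and 0.639% and in 1.93 and 0.663%. The shorter core TTCCCGC, which every TTTCCCGC contains, was in 2 Eed+/+ windows (4.65%, against 7.94% with other annotation) and in 7 Eed-/- windows (20.0%, against 7.24%), at Anp32b, Cdc2a, Hmga2, Prox1, Sept3, Smc1b and Vash1. The cell cycle genes homology region, TTTGAA, was in 7 Eed+/+ windows (16.3%, against 7.88%) and 5 Eed-/- windows (14.3%, against 5.04%). CCAAT was in 20.9 and 25.7%, against 20.3 and 19.8%. The E-box CACGTG was in 2 of 43 Eed+/+ windows (4.65%, against 6.21%) and 5 of 35 Eed-/- windows (14.3%, against 8.19%). In Eed+/+ it was in 1 of 22 not overlapped and 1 of 21 overlapped. In Eed-/- it was in 5 of the 12 windows in Eed-/- only, at Ccnd1, Mov10l1, Sept11, Sept3 and Sycp2, and in 0 of the 23 overlapped ones. Of all Eed-/- peaks 8.40% held it, but the peaks with other annotation were not split in this way. Centred on the summit in place of the middle, the E-box was again in 5 of 12 and 0 of 23 Eed-/- windows. Anp32b and Cited2 then stood in place of Mov10l1 and Sept11. This made 14.3% of the 35 Eed-/- windows, against 9.28% with other annotation. In Eed+/+ the E-box was in 4 of 43 summit windows (9.30%, against 8.15%), 3 of 22 not overlapped and 1 of 21 overlapped. The other motifs moved too. At the summit TTTGAA was in 3 of 43 Eed+/+ and 0 of 35 Eed-/- windows (4.32 and 4.31% with other annotation), and CCAAT in 3 and 2 (297 of 1852 and 218 of 1368 with other annotation). The E2F core was in 5 Eed+/+ windows there (11.6%, against 8.37% with other annotation) and 5 Eed-/- windows (14.3%, against 7.53%). TTTCCCGC was in 2 Eed+/+ windows (4.65%, against 1.35%) and 0 Eed-/- windows (1.68% with other annotation). TTTGGCGC was in 1 Eed+/+ window (2.33%, against 0.972%) and 0 Eed-/- windows (0.804% with other annotation). Both strands were read, no test was made, and a match in these letters is not a measured site of any factor.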

How the data were processed

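The data were 2 deposited peak lists of RING1B, 1 for wild type and 1 for Eed-/- cells. The 5 other samples in the labels, input and CBX7, were not analysed here, and 0 columns of per-sample values were left unused. Per the methods, the authors mapped tags to mm9 with Bowtie (version not given in the sources used here), kept unique positions, called peaks with MACS at a false discovery rate below 2% and over 100 tags, and named the nearest gene with CisGenome. The control library of the calls is not given in the sources used here. The deposited values are tag counts, a fold enrichment ratio, a false discovery rate in percent, and a score made from the p-value of the peak caller.

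Peaks with a process term holding the words cell cycle were taken, without names starting with Cdkn. The members and lists were chosen with earlier results of these data known. Levels are tags per kb per 1000000 mapped tags. Peaks were paired by the largest overlap of at least 1 bp. Start sites and CpG islands (at least 200 bp, 50% GC and an observed to expected CG ratio of 0.6) were taken from the NCBIM37 genome and its GENCODE annotation. Only GENCODE starts of protein-coding genes were used, so a peak counted as covering no start may hold the start of another kind of gene. Of 4153 peaks with a start in the files, 3595 had it within 100 bp of a GENCODE start (86.6%). A start counts as a gene's own where any transcript of that gene begins there. The overlap and island searches were tested on simulated data. With 1 list a genotype, no test between genotypes was possible, so shares carry exact (Clopper-Pearson) 95% intervals. Of the member genes 1 is not reported here and the others are named; full values are given for the 6 highest in fold enrichment of each class, members of the gene lists, genes with 3 peaks, the widest peak and the extreme ratios. Alternatives were other terms, false discovery rates, depths, overlaps, level measures, start distances and island criteria; the E2F core, the summit windows and the 100-base stretches were chosen after seeing the data. Python 3.11.15, numpy 2.4.6 and scipy 1.17.1 were used.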

Additional observations from a re-analysis of the deposited data

How the results depend on the processing

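Under the alternatives, 148 of 174 recomputed values stayed within the interval of the reported value (for counts and for the level relative to other annotated peaks, within 1.5 times). Some of these could not have moved. Leaving out X and Y took away no member peak, and all 43 Eed+/+ peaks already had a false discovery rate of 1% or less. Filters on Eed-/- peaks left Eed+/+ counts and medians as they were, and unscaled tags per kb gave the same ratio by arithmetic. The count of 148 is therefore not a measure of robustness. With the exact term cell cycle only, 25 Eed+/+ and 23 Eed-/- peaks were taken. With arrest terms only, 4 and 5 peaks were taken, of which 100% of the Eed+/+ peaks were overlapped, and in both genotypes 100% covered their own start and 100% of the Eed-/- ones an island. With terms of mitosis, meiosis or cell division added, which was chosen after seeing the data, 69 and 55 peaks were taken. At a false discovery rate of 1% or less, 10 Eed-/- peaks remained and 16.3% of the Eed+/+ peaks were overlapped; the Eed-/- median level was 1.52, the fold enrichment 6.58 and the island share 100%. With only Eed-/- peaks that pass 100 tags at the Eed+/+ depth, 1 peak was left (Sept5, 6710 bp, on its own start, an island and an Eed+/+ peak, each 100%), and 0% of the Eed+/+ peaks were overlapped. With 1 peak a gene, 100% of the Eed-/- peaks were on an island. The middle of 46.5% of Eed+/+ peaks was within 1 kb of the start in the files, and 79.1% met islands of at least 500 bp and 55% GC. The start of another gene only, counted in place of a gene's own after seeing the data, gave 16.3 and 14.3%. The overlap shares, levels and ratios thus rest on the depth and thresholds of 1 call a genotype: counts of peaks in Eed-/- only say nothing of Eed+/+ levels below 101 tags. No paired analysis was possible because each genotype has 1 peak list, with its runs pooled. Leaving out a replicate was likewise not possible.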
